A study of Homo sapiens with 12 samples.

Results

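The integrated stress response genes driven by the transcription factor ATF4, and the genes that fold and clear proteins in the endoplasmic reticulum (ER), were followed in triple-negative breast cancer cells with a wild-type or a mutated glucocorticoid receptor (GR). The 34 members were taken by gene symbol, of 19907 symbols listed, and all 34 were found in every library and passed the filter on low values. They were kept as 2 branches, 22 genes of the ATF4 amino acid branch and 12 genes of the ER chaperone branch. The cells were MDA-MB-231, an established mesenchymal line from a triple-negative tumour. In the S134A-GR line (clone #1), a phosphorylated serine of the receptor, Ser134, was changed to alanine on both alleles by a CRISPR/Cas9 knock-in, so that this site cannot be phosphorylated. The wt-GR line was a clone recovered from the same transfected population without the knock-in, so each genotype is 1 clone, and genotype and clone cannot be told apart. All cells first spent 18 h in medium with 1% DCC, charcoal-stripped serum that carries little hormone. For the next 6 h they received vehicle (Veh) or TGFβ1, a cytokine of the tumour environment, at 10 ng/mL. Each of the 4 groups (WT-GR Veh, WT-GR TGF-beta, S134A-GR Veh and S134A-GR TGF-beta) held 3 libraries. No glucocorticoid was added in any group.

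ATF4 is made when kinases that sense amino acid shortage, unfolded protein in the ER, double-stranded RNA or lack of haem phosphorylate the initiation factor eIF2α, which lowers translation of most messages but raises that of ATF4. ATF4 then switches on enzymes that make serine, asparagine, proline and one-carbon units, transporters, aminoacyl-tRNA synthetases and its own feedback inhibitors. In the ER itself, the sensors IRE1 and ATF6 raise the chaperones, disulfide isomerases and degradation factors that handle misfolded proteins, IRE1 through the spliced form of XBP1. Because ATF4 is controlled largely at translation and XBP1 by splicing, the total of either message is not a reading of its activity, and these libraries hold gene totals only.

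Values are normalized counts, that is, reads per gene divided by a library factor, and fold changes are on the log2(normalized count + 1) scale, which understates the change of low genes. A gene was called at an adjusted p under 0.05 (limma, Benjamini-Hochberg over 18579 genes). In the text, 2 log2 fold changes between the lines given together for a gene are those under vehicle and under TGFβ1, in that order. Where 2 responses to TGFβ1 are given without naming the line, the wt-GR value comes first and the S134A-GR value second. Each library held between 56362036 and 129832227 recovered reads. The coefficient of variation of a member within a group had a median of 3.53% and ran from 0.381% to 40.2%. Nothing in the labels says whether the 3 libraries of a group came from separate cultures, so p-values measure the spread between these libraries, which may be technical. The 6 mesenchymal markers (VIM, CD44, EGFR, AXL, MSN and CAV1) were at 13848 or more in every library, while ESR1 was at most 7.32, CDH1 at most 12.5, PTPRC at most 9.80 and ALB at most 12.5. ERBB2 (7229 to 10589), KRT8 (59198 to 75095), EPCAM (318 to 1093) and PECAM1 (746 to 1454) were read in every library, and PGR and CD3E were not used here. NR3C1, the edited gene, cannot show the codon change in a gene total. Its total was itself lower in S134A-GR cells (log2 fold change -0.41 under vehicle and -0.31 under TGFβ1, adjusted p = 0.00012 and 0.00134). By western blot, the paper reports that total GR protein was equal in its lines. Gene totals do not measure protein.

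The first question was whether the 2 lines differed in these genes at rest. Under vehicle, 26 of the 34 members were lower in S134A-GR than in wt-GR cells, 2 were higher (CEBPB and ATF5) and 6 were not called. Of all genes tested, 51.5% were called in this comparison, 26.5% lower and 25.0% higher, so a call alone is common here. The calls of the members lay mostly in 1 direction, while those of all genes were split. Most members are abundant messages. Among genes with a mean of at least 1000 normalized counts, 38.8% were lower and 28.8% higher, and of the 29 members above that level 23 were lower and 2 higher. The median log2 fold change was -0.353 over the amino acid branch and -0.329 over the ER branch, beside 0.0191 over all genes. Most of these differences were moderate. ASNS alone among the 34 differed by 1 or more on the log2 scale, against 9.51% of all genes.

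Under TGFβ1, 27 members were lower in S134A-GR cells, 3 were higher (CEBPB, ATF5 and STC2) and 4 were not called. Of all genes, 48.8% were called, 25.7% lower and 23.1% higher. Of the 29 abundant members 24 were lower and 2 higher, beside 37.0% and 28.0% of abundant genes. The medians were -0.364 for the amino acid branch, -0.383 for the ER branch and 0.0117 over all genes. ASNS and NUPR1 were the members that differed by 1 or more on the log2 scale, against 8.46% of all genes. The vehicle and TGFβ1 comparisons use different libraries of the same 2 clones, so they do not add a further clone.

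**Figure D1:**
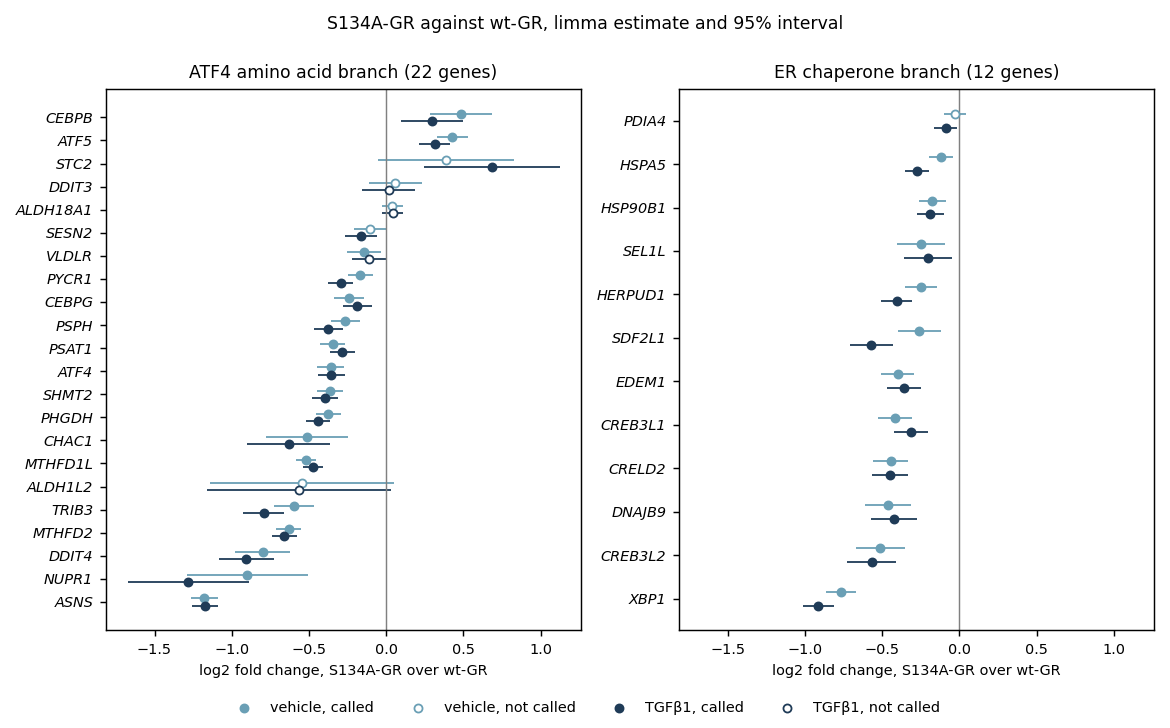
Log2 fold change of S134A-GR over wt-GR (x axis) for each member under vehicle (light) and TGFβ1 (dark), with the 95% interval; filled points were called at an adjusted p under 0.05. Nearly all points lie left of 0, ASNS at -1.18 and -1.17, while CEBPB, ATF5 and STC2 lie to the right.

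ATF4 itself was among the most abundant members. It read 36011, 36870 and 39357 normalized counts in the wt-GR vehicle libraries and 30015, 29348 and 28048 in the S134A-GR vehicle libraries. Under TGFβ1 the counts were 41028, 38468 and 39851 in wt-GR and 30125, 32045 and 31149 in S134A-GR cells. Every S134A-GR library was below every wt-GR library, and the log2 fold change between lines was -0.36 (SE 0.0415, adjusted p = 5.31e-06) under vehicle and -0.35 (adjusted p = 6.8e-06) under TGFβ1. Of the 75-base stretches of ATF4 exons, 6.19% also lie in other genes, most often the pseudogene ATF4P4, so that some reads may have been shared.

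DDIT3, which encodes the pro-apoptotic factor CHOP and is a usual marker of a strong ER stress response, did not follow ATF4. Its counts were 1550, 1680 and 1927 in wt-GR and 1759, 1820 and 1778 in S134A-GR cells under vehicle, and 1794, 1623 and 1845 against 1608, 1867 and 1856 under TGFβ1. The groups overlapped in each comparison, and the 95% interval of the line difference under vehicle ran from -0.112 to 0.233. TRIB3, a pseudokinase that ATF4 and CHOP induce and that feeds back on both, was lower in the mutant. It read 3593, 3843 and 4231 in wt-GR against 2521, 2683 and 2495 in S134A-GR cells under vehicle, and 4661, 4181 and 4663 against 2514, 2695 and 2575 under TGFβ1. The 6 S134A-GR libraries lay in a narrow range below all wt-GR libraries (log2 fold change -0.60 and -0.79, adjusted p = 1.91e-06 and 1.28e-07).

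The remaining transcription factors of the branch split by direction. CEBPB and ATF5, bZIP factors that work with ATF4 or are translated in the same way, were the 2 members called higher in S134A-GR cells in both conditions, CEBPB at 0.48 and 0.30 and ATF5 at 0.43 and 0.31. The CEBPB difference under TGFβ1 was no longer called without wt-GR TGFβ1 replicate 2 or 3 or S134A-GR TGFβ1 replicate 3 (adjusted p 0.00173 to 0.0900 over the alternatives). Of the exon bases of ATF5, 19.5% overlap IL4I1 or NUP62 on the other strand, and 12.6% of CEBPB lies over CEBPB-AS1. Since it is not stated whether the counting used strand, these partners cannot be told apart from the members. CEBPG, the partner with which ATF4 binds amino acid response elements, was lower (-0.24 and -0.19). NUPR1, a small chromatin protein induced by stress, was a low message. It read 191, 188 and 172 in wt-GR and 115, 98.3 and 82.9 in S134A-GR cells under vehicle, and 266, 296 and 284 against 110, 155 and 89.4 under TGFβ1. The lines did not overlap in either condition, and the S134A-GR level was 0.536 and 0.411 times that of wt-GR cells (adjusted p = 0.000849 and 4.46e-05). Of the 75-base stretches of NUPR1 exons, 15.0% also lie in other annotated gene models, most often ENSG00000289754.

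Among the targets that restrain growth or redox balance, DDIT4 differed most. It encodes REDD1, an inhibitor of mTORC1 that also responds to glucocorticoids and to hypoxia. Its counts were 36624, 39629 and 41620 in wt-GR and 22178, 24179 and 21332 in S134A-GR cells under vehicle. Under TGFβ1 they were 43634, 41968 and 41507 against 23338, 25723 and 19252. All 6 S134A-GR libraries fell far below the wt-GR range, and the level was 0.574 times (log2 fold change -0.80, SE 0.0828) and 0.534 times that of wt-GR cells (adjusted p = 1.91e-06 and 6.27e-07). CHAC1, which degrades glutathione, was lower (-0.51 and -0.63, adjusted p = 0.00317 and 0.000705). SESN2, a leucine sensor that restrains mTORC1, had values nearer 0. Its vehicle difference of -0.11 missed the threshold (adjusted p = 0.0894) and its TGFβ1 difference of -0.16 passed it (adjusted p = 0.0131).

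The largest difference of all 34 members under vehicle was that of ASNS, the enzyme that makes asparagine from aspartate and glutamine. It read 5199, 5186 and 5304 in wt-GR and 2362, 2327 and 2250 in S134A-GR cells under vehicle, and 5279, 5703 and 5463 against 2484, 2428 and 2380 under TGFβ1. The libraries of each line lay close together and far from those of the other, at 0.442 and 0.444 times the wt-GR level (log2 fold change -1.18 and -1.17, SE 0.0399, adjusted p = 5.19e-11 and 5.95e-11). In the reference annotation, 43.5% of the 75-base stretches of ASNS exons are shared with other gene models, most often ENSG00000284707. The split of ASNS reads therefore depended on the annotation used. The 3 enzymes that make serine from a glycolytic intermediate were also lower, PHGDH at -0.37 and -0.44, PSAT1 at -0.35 and -0.28 and PSPH at -0.26 and -0.37, with adjusted p between 2.99e-07 and 0.000181. The proline enzymes went separate ways. PYCR1, which makes proline in the last step, was lower (-0.17 and -0.29, adjusted p = 0.00175 and 1.59e-05). Of its exon bases, 14.1% overlap MYADML2 on the same strand. ALDH18A1, which makes its precursor, read 12405, 12351 and 12083 in wt-GR and 12324, 12894 and 12620 in S134A-GR cells under vehicle. Its groups overlapped and the 95% interval ran from -0.0293 to 0.106.

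The mitochondrial one-carbon enzymes take the units that serine gives up and pass them on as formate. SHMT2, the entry enzyme, was lower in S134A-GR cells (-0.36 and -0.40, adjusted p = 2.84e-06 and 1.36e-06). MTHFD2 read 4857, 4901 and 5258 in wt-GR and 3183, 3220 and 3281 in S134A-GR cells under vehicle. Its TGFβ1 libraries read 5743, 5797 and 5594 against 3630, 3582 and 3640. Every TGFβ1-treated S134A-GR library therefore still lay below every untreated wt-GR library, and the line difference was -0.63 and -0.66 (adjusted p = 1.04e-08 and 7.82e-09). Of the MTHFD2 exon bases, 11.6% overlap SLC4A5 on the other strand. MTHFD1L, the last enzyme of the mitochondrial path, read 8386, 8081 and 8087 in wt-GR against 5633, 5748 and 5741 in S134A-GR cells under vehicle. Under TGFβ1 it read 10855, 10932 and 10938 against 7949, 7769 and 7811. The treated S134A-GR libraries ended just below the untreated wt-GR libraries, with a line difference of -0.52 and -0.48 (adjusted p = 7.14e-09 and 1.91e-08). ALDH1L2, which oxidises the folate-bound unit, was near the low end of detection, with 46.5 to 61.9 in wt-GR and 31.4 to 45.2 in S134A-GR vehicle libraries. Its difference of -0.54 was not called (adjusted p = 0.119), nor was the -0.57 under TGFβ1, where leaving out S134A-GR TGFβ1 replicate 2 brought a call (adjusted p 0.0191 to 0.409 over the alternatives).

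The last members of the branch are a lipoprotein receptor and a secreted hormone. VLDLR read 4885, 5170 and 5085 in wt-GR and 4367, 4718 and 4620 in S134A-GR cells under vehicle, and 6211, 6254 and 5953 against 5792, 6094 and 5233 under TGFβ1. The lines were apart under vehicle (-0.14, adjusted p = 0.0327) and overlapped under TGFβ1 (-0.11, adjusted p = 0.105). The vehicle call was lost without wt-GR vehicle replicate 2 or 3 or S134A-GR vehicle replicate 1 or 3 (adjusted p 0.0111 to 0.137 over the alternatives), and leaving out S134A-GR TGFβ1 replicate 2 brought a call under TGFβ1 (0.0279 to 0.459). STC2, a low message for the secreted protein stanniocalcin 2, read 71.6 to 98.3 in wt-GR and 100 to 141 in S134A-GR vehicle libraries, a difference of 0.38 that was not called. Under TGFβ1 it was higher in S134A-GR cells (0.68, adjusted p = 0.0128), a call that was lost without wt-GR TGFβ1 replicate 2 (adjusted p 0.00529 to 0.0656 over the alternatives).

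**Figure D2:**
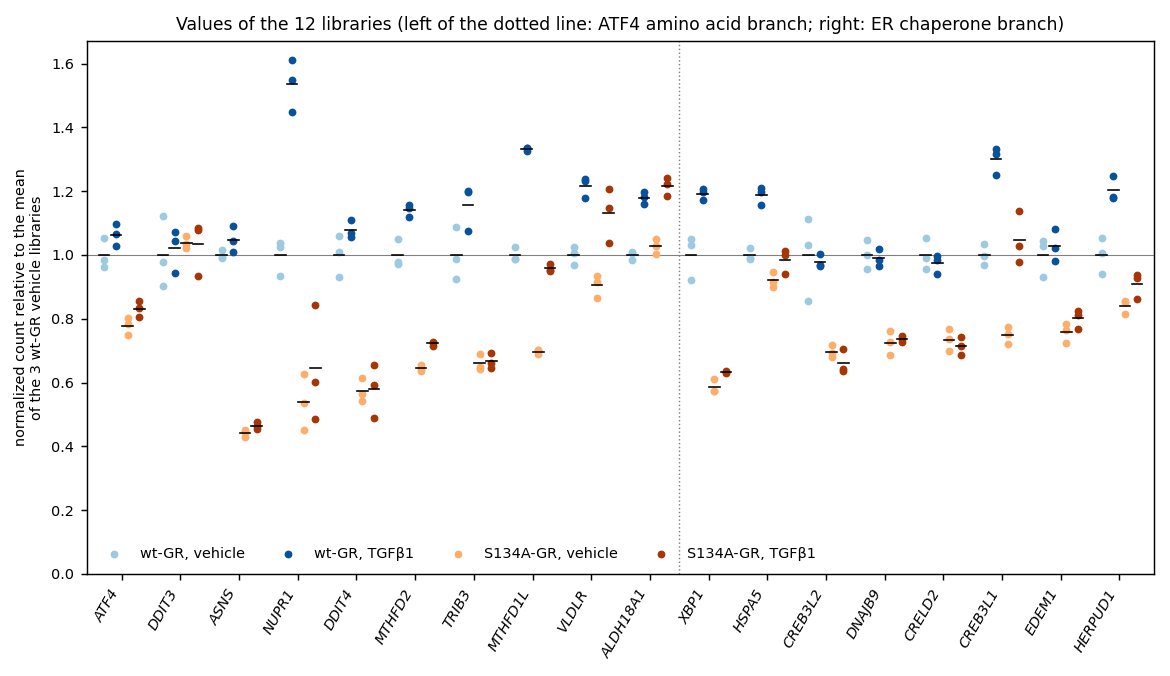
Normalized count of each of the 12 libraries relative to the mean of the 3 wt-GR vehicle libraries (y axis, from 0) for the 18 members given in full; black bars are group means. The 6 S134A-GR libraries sit below the wt-GR libraries for ASNS, DDIT4 and XBP1, and overlap them for DDIT3 and ALDH18A1.

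Promoter letters were read for 29 members from RefSeq (GRCh38.p14), over the 250 bases before the start of each gene, and 5 members had no matched entry (PSPH, SHMT2, ALDH1L2, PYCR1 and NUPR1). The letters TGATGNAA, the core of the composite C/EBP-ATF site that ATF4 binds with a C/EBP partner, were sought on both strands. They were in 3.14% of 34961 promoters, in 3 of the 17 matched members of the amino acid branch (ASNS, CHAC1 and MTHFD1L) and in 1 of the 12 of the ER branch (HERPUD1). The stretches of the 3 amino acid branch members are shown. HERPUD1, not shown, and members without the letters in this window, DDIT4 and TRIB3 among them, were also lower in S134A-GR cells. Capitals mark the letters of the motif, or of its reverse complement where the motif lies on the other strand. Each line is written 5′ to 3′ on the strand of the gene.
ASNS: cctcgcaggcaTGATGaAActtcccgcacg
CHAC1: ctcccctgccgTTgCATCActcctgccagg
MTHFD1L: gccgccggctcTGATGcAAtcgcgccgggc
The ASNS stretch is chr7:97872458-97872487 on the minus strand, that of CHAC1 chr15:40953251-40953280 and that of MTHFD1L chr6:150866346-150866375, both on the plus strand. Each of the 3 touches an annotated GENCODE exon. ALDH18A1, a member that did not differ between lines, held TGACGTGG, the unfolded protein response element found in 0.615% of promoters, on the other strand. This element was in 1 of the 17 matched members of the amino acid branch and in 0 of the 12 of the ER branch. A match is a description of letters and not a measured site, since no binding was measured here.

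The ER branch was lower in S134A-GR cells almost as a whole, 11 of 12 members under vehicle and 12 of 12 under TGFβ1, none higher. Of all genes, 26.5% and 25.7% were lower. Of the 11 abundant members 10 and 11 were lower, beside 38.8% and 37.0% of abundant genes. XBP1 differed most. It encodes the factor that, once spliced by IRE1, drives chaperone, secretory and degradation genes. Its counts were 7782, 8709 and 8873 in wt-GR and 4860, 5173 and 4861 in S134A-GR cells under vehicle, and 10200, 9917 and 10114 against 5336, 5376 and 5349 under TGFβ1. No S134A-GR library came near the wt-GR range, and the level was 0.588 and 0.531 times that of wt-GR cells (log2 fold change -0.77 and -0.91, adjusted p = 9.61e-09 and 1.98e-09). Gene totals do not separate the spliced from the unspliced message.

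The 2 membrane-bound factors of the CREB3 family, which are cut in the Golgi and act on secretory and matrix genes, were lower as well. CREB3L1 read 10912, 10220 and 10512 in wt-GR and 8154, 7943 and 7605 in S134A-GR cells under vehicle. Its TGFβ1 libraries read 14066, 13880 and 13191 against 12011, 10835 and 10314. The lines were apart in each condition (-0.42 and -0.31, adjusted p = 1.02e-05 and 0.000156), while the treated S134A-GR libraries reached the level of untreated wt-GR cells. CREB3L2 read 15168, 14032 and 11633 in wt-GR against 9438, 9245 and 9785 in S134A-GR cells under vehicle, and 13129, 13648 and 13182 against 9595, 8758 and 8644 under TGFβ1. The wt-GR vehicle libraries were spread more widely than the others, all above the S134A-GR libraries, and the difference was -0.51 and -0.57 (adjusted p = 4.22e-05 and 1.8e-05).

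Among the chaperones, log2 fold changes lay nearer 0 than that of XBP1. HSPA5, which encodes BiP, the chaperone that holds the ER sensors inactive, read 115666, 119681 and 116265 in wt-GR and 105595, 111091 and 107379 in S134A-GR cells under vehicle. Under TGFβ1 it read 140304, 141845 and 135645 against 117072, 118644 and 110232. The lines were apart in both conditions (-0.12 and -0.27, adjusted p = 0.0152 and 2.7e-05), and the vehicle call was lost without wt-GR vehicle replicate 2 or S134A-GR vehicle replicate 1 (adjusted p 0.00427 to 0.0682 over the alternatives). HSP90B1, the ER paralogue of HSP90, was lower (-0.18 and -0.19, adjusted p = 0.00212 and 0.00137). PDIA4, a disulfide isomerase, was the member that was not called under vehicle (-0.03, 95% interval -0.101 to 0.0453). Its -0.09 under TGFβ1 had an adjusted p of 0.0434 and was not called in 10 of 21 alternatives, those without wt-GR vehicle replicate 2, any S134A-GR vehicle replicate, wt-GR TGFβ1 replicate 1 or 3 or S134A-GR TGFβ1 replicate 2 or 3 among them (adjusted p 0.0238 to 0.186).

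The cochaperones and cofactors were lower too. DNAJB9, the BiP cochaperone that recruits BiP to IRE1, read 671, 735 and 701 in wt-GR and 511, 535 and 482 in S134A-GR cells under vehicle, and 679, 715 and 691 against 512, 516 and 525 under TGFβ1. Its lines did not overlap, with a difference of -0.46 and -0.42 (adjusted p = 5.71e-05 and 0.000139). CRELD2, an ER stress-inducible disulfide isomerase, read 2359, 2442 and 2599 against 1813, 1894 and 1727 under vehicle and 2432, 2324 and 2462 against 1695, 1762 and 1831 under TGFβ1. No mutant library reached the wt-GR range, and the difference was -0.45 in both conditions (adjusted p = 7.19e-06 and 7.38e-06). SDF2L1, a partner of BiP and its cochaperones, was lower (-0.26 and -0.57, adjusted p = 0.0038 and 5.06e-06).

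The degradation factors of the branch take misfolded proteins out of the ER. EDEM1, a lectin that delivers them, read 14898, 14666 and 13280 in wt-GR and 10347, 10929 and 11187 in S134A-GR cells under vehicle, and 14032, 15457 and 14590 against 11765, 11586 and 10981 under TGFβ1. The mutant libraries were below all wt-GR libraries (-0.40 and -0.36, adjusted p = 1.31e-05 and 3.79e-05). HERPUD1, a scaffold of the ubiquitin ligase complex at the ER membrane, read 7355, 7864 and 8253 against 6674, 6705 and 6370 under vehicle and 9759, 9256 and 9223 against 7256, 7333 and 6737 under TGFβ1. Again the lines did not overlap, and the difference was -0.25 under vehicle and -0.41 under TGFβ1 (adjusted p = 0.000518 and 6.9e-06). SEL1L, the adaptor of the ligase HRD1, was lower (-0.25 and -0.20, adjusted p = 0.0103 and 0.0321), the second of which was lost without wt-GR TGFβ1 replicate 2 or 3 or S134A-GR TGFβ1 replicate 2 or 3 (adjusted p 0.00664 to 0.131 over the alternatives).

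Compared per kilobase of the canonical transcript, so that genes can be set against each other, the ER chaperones and ATF4 led in untreated wt-GR cells. HSP90B1 stood at 52182 ± 881 normalized counts per kb (SD, n = 3), HSPA5 at 29891 ± 552, ATF4 at 26366 ± 1225, DDIT4 at 22529 ± 1442 and PDIA4 at 18689 ± 385. Each step in this order was larger than the SDs of the genes on either side of it.

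The next stretches are shown because they carry the ER stress element, which ATF6 and the factor NF-Y bind together and which holds CCAAT and CCACG at a fixed spacing. Its letters, on either strand, were in 26 of 34961 RefSeq promoters, or 0.0744%, in 4 of the 12 ER branch promoters and in none of the 17 of the amino acid branch. Capitals mark the letters fixed in the motif, in its forward form for XBP1, HSPA5 and the first HSP90B1 stretch and as the reverse complement for the second HSP90B1 stretch and CRELD2.
XBP1: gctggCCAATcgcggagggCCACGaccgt
HSPA5: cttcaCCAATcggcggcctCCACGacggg
HSP90B1 first: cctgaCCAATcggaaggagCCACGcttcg
HSP90B1 second: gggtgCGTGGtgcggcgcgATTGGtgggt
CRELD2: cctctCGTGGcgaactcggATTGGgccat
They lie at chr22:28800598-28800626 (XBP1) and chr9:125241386-125241414 (HSPA5), both on the minus strand, and on the plus strand at chr12:103930211-103930239 and chr12:103930316-103930344 (HSP90B1) and at chr22:49918549-49918577 (CRELD2). Both HSP90B1 stretches touch an annotated GENCODE exon, while those of XBP1, HSPA5 and CRELD2 do not. Members with and without these letters were lower in S134A-GR cells, XBP1 at -0.77, CRELD2 at -0.45, HSP90B1 at -0.18 and HSPA5 at -0.12 under vehicle with them, and CREB3L2 at -0.51 and DNAJB9 at -0.46 among those without them in this window.

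The second question was how the members responded to TGFβ1 in each line. In wt-GR cells, 13 of 34 members rose and none fell, beside 21.0% of all genes called, 11.2% higher and 9.82% lower. Of the 29 abundant members 12 rose, beside 19.0% of abundant genes. In the amino acid branch these were 8 of 22, NUPR1, MTHFD1L, VLDLR, ALDH18A1, PYCR1, TRIB3, MTHFD2 and CEBPG. In the ER branch they were 5 of 12, CREB3L1, HERPUD1, XBP1, HSPA5 and SDF2L1. No member reached a log2 fold change of 1 in size, which 2.29% of all genes did.

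In the amino acid branch, 5 members rose in both lines. MTHFD1L rose by 33.3% in wt-GR cells (log2 fold change 0.41, SE 0.0304, adjusted p = 2.14e-07) and by 37.4% in S134A-GR cells (0.46, adjusted p = 9.64e-08). ALDH18A1 rose by 18.0% and 18.3%, from the vehicle values above to 14242, 14518 and 14714 in wt-GR and 15227, 14995 and 14547 in S134A-GR cells, with no overlap between vehicle and TGFβ1 in either line (adjusted p = 7.8e-05 in both). VLDLR rose by 21.7% and 24.7% (adjusted p = 0.00134 and 0.000584), MTHFD2 by 14.2% and 12.1% (adjusted p = 0.00248 and 0.0078) and CEBPG by 11.7% and 15.8% (adjusted p = 0.0188 and 0.00349). PYCR1 rose by 17.6% in wt-GR cells (adjusted p = 0.000428), and its 7.77% in S134A-GR cells was not called by limma (adjusted p = 0.0611) and was called by DESeq2 (0.0326, with 0.0326 to 0.217 over the alternatives).

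ATF4, ASNS and DDIT3 moved little with treatment. ATF4 gave log2 fold changes of 0.09 in both lines, not called (adjusted p = 0.156 and 0.14), and without wt-GR vehicle replicate 3 the first was called (adjusted p 0.0355 to 0.403 over the alternatives). ASNS gave 0.07 in both lines (adjusted p = 0.278 and 0.257), and DDIT3 0.03 and -0.01. NUPR1 rose by 53.3% in wt-GR cells (adjusted p = 0.0275) and gave 0.23 in S134A-GR cells (adjusted p = 0.443). TRIB3 rose by 15.9% in wt-GR cells (adjusted p = 0.0245), although its vehicle and TGFβ1 libraries overlapped. The wt-GR calls of TRIB3, NUPR1 and CEBPG were lost when any one of several libraries was left out, while their log2 fold changes stayed at 0.16 to 0.28, 0.57 to 0.66 and 0.14 to 0.18 over the alternatives. Leaving out wt-GR vehicle replicate 2 or TGFβ1 replicate 1 lost all 3, leaving out vehicle replicate 1 lost TRIB3, vehicle replicate 3 NUPR1, TGFβ1 replicate 2 CEBPG and NUPR1, and TGFβ1 replicate 3 TRIB3 and NUPR1 (adjusted p up to 0.103, 0.0863 and 0.0679). The count of the branch in wt-GR cells was then 5 in place of 8 without vehicle replicate 2 or TGFβ1 replicate 1.

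In S134A-GR cells 8 of 34 members were called, 6 higher and 2 lower, beside 18.7% of all genes, 10.0% higher and 8.69% lower. Of the 29 abundant members 6 rose and 2 fell, near the 17.8% and 10.7% of abundant genes. The 6 that rose were MTHFD1L, VLDLR, ALDH18A1, CEBPG, MTHFD2 and CREB3L1. None changed by 1 or more on the log2 scale, beside 1.66% of all genes. The 2 that fell were enzymes of serine synthesis, PSPH (-0.19, adjusted p = 0.00883) and PHGDH (-0.13, adjusted p = 0.0259). In wt-GR cells these gave -0.08 and -0.06 and were not called. The PHGDH call was lost without any one of 5 of the 6 S134A-GR libraries, all but TGFβ1 replicate 2 (adjusted p 0.0130 to 0.0960 over the alternatives). In the ER branch, CREB3L1 rose by 39.7% in S134A-GR cells (log2 fold change 0.48, SE 0.0514, adjusted p = 1.19e-05) and by 30.0% in wt-GR cells (0.38, adjusted p = 0.0001), and was the only ER member called in both lines.

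**Figure D3:**
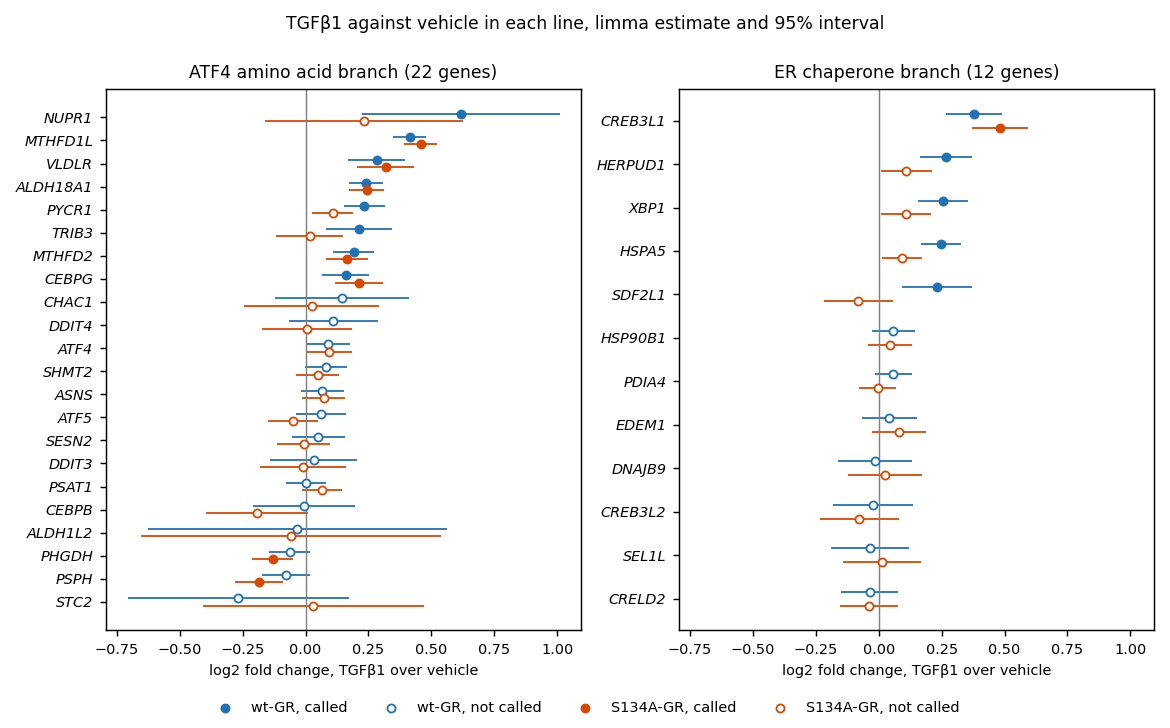
Log2 fold change of TGFβ1 over vehicle (x axis) for each member in wt-GR (blue) and S134A-GR cells (orange), with the 95% interval; filled points were called. MTHFD1L, VLDLR, ALDH18A1, MTHFD2, CEBPG and CREB3L1 are filled in both lines, and XBP1, HSPA5, HERPUD1 and SDF2L1 in wt-GR cells alone. Of these 4, the intervals of SDF2L1 do not overlap between the lines, but the difference between its responses was not called (limma adjusted p = 0.269).

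The 4 other ER members that rose in wt-GR cells had smaller values in S134A-GR cells. XBP1 rose by 19.4% in wt-GR cells (adjusted p = 0.00112) and gave 0.11 on the log2 scale in S134A-GR cells (adjusted p = 0.124). HSPA5 rose by 18.8% (adjusted p = 0.000213) and gave 0.09 (adjusted p = 0.0972), and HERPUD1 rose by 20.4% (adjusted p = 0.000973) and gave 0.11 (adjusted p = 0.132). SDF2L1 rose by 17.3% (adjusted p = 0.0202, lost without wt-GR vehicle replicate 1 or 2 or TGFβ1 replicate 1, with 0.00492 to 0.102 over the alternatives) and gave -0.08. In S134A-GR cells XBP1 was called without wt-GR vehicle replicate 1 (0.0375 to 0.303 over the alternatives) and HSPA5 without S134A-GR TGFβ1 replicate 3 (0.0337 to 0.285), so that 2 ER members were called in place of 1.

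The difference between these responses was tested by itself, as the interaction of line and treatment. No member passed, beside 0.414% of all genes called (0.167% with the larger value in S134A-GR cells, 0.248% with the smaller, and 0.0592% with a difference of 1 or more on the log2 scale), and the calls in one line and not the other are therefore not shown to differ. SDF2L1 had the lowest adjusted p of the 34 (difference -0.31, 95% interval -0.507 to -0.115, adjusted p = 0.269 by limma, 0.253 by edgeR and 0.0844 by DESeq2). An unadjusted p under 0.05 was found for 6 members by limma, 6 by edgeR and 5 by DESeq2, beside 1728 of the 18579 genes by limma. Those 6 were SDF2L1, HSPA5 (-0.15), HERPUD1 (-0.16), XBP1 (-0.15), TRIB3 (-0.20) and PYCR1 (-0.13), all with the smaller response in S134A-GR cells. For ATF4, ASNS and ALDH18A1 the interval of the difference lay within -0.121 to 0.131, whereas for NUPR1 it ran from -0.939 to 0.172, too wide to say.

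Other genes of the same pathways were read from lists that do not hold the members. They were not compared with their neighbours on the chromosome, so a difference of the region was not examined for them. The list counts under vehicle stand beside 26.5% lower and 25.0% higher of all genes, and 38.8% and 28.8% of abundant genes. Of 21 sensors and eIF2 regulators, 9 were lower and 5 higher in S134A-GR cells under vehicle, with a median of -0.0857. The eIF2α kinases split, EIF2AK3 (PERK) at -0.33 and EIF2AK2 (PKR) at -0.39, both called, beside EIF2AK1 at 0.08 and EIF2AK4 (GCN2) at -0.03, not called. DNAJC3, an inhibitor of these kinases that also acts as an ER cochaperone, was lowest, with 6451, 6252 and 5604 in wt-GR and 2906, 3002 and 2951 in S134A-GR cells (log2 fold change -1.04, adjusted p = 1.52e-09). The 2 regulatory subunits of the eIF2α phosphatase went opposite ways, PPP1R15A at 0.23 and PPP1R15B at -0.23, and EIF2B4, a subunit of the exchange factor, was lower (-0.40, adjusted p = 1.36e-05).

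Aminoacyl-tRNA synthetases with the tRNA exporter XPOT, many of them ATF4 targets, moved with both line and treatment. Of 21 listed, 14 were lower and 2 higher in S134A-GR cells under vehicle, with a median of -0.205. With TGFβ1, 13 of 21 rose in wt-GR and 15 of 21 in S134A-GR cells, and none fell in either line. Of all genes, 11.2% and 10.0% rose and 9.82% and 8.69% fell. Among abundant genes, 19.0% and 17.8% rose. The medians of the list were 0.149 and 0.151, beside -0.00459 and -0.00972 over all genes. DARS, the aspartate enzyme, read 14884, 15100 and 15009 in wt-GR and 8880, 9261 and 9618 in the mutant under vehicle (log2 fold change -0.70, adjusted p = 6.58e-09). YARS and FARSB, for tyrosine and phenylalanine, were lower under vehicle, at -0.46 and -0.43, and YARS rose with TGFβ1 in both lines (0.18 and 0.22, adjusted p = 0.000364 and 7.89e-05).

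Of 30 other ER folding factors, 20 were lower and 5 higher in S134A-GR cells under vehicle, with a median of -0.284. Among abundant genes 38.8% were lower and 28.8% higher. HYOU1, an exchange factor of BiP, read 47554, 45234 and 43065 in wt-GR against 23080, 22533 and 23028 (log2 fold change -0.98, adjusted p = 1.05e-10). SPCS2, a subunit of the signal peptidase, and PDIA6, a disulfide isomerase that acts on the sensors, were lower under vehicle, at -0.91 and -0.88. Of 22 other ER-associated degradation genes, 12 were lower and 3 higher (median -0.115), led by the lectin ERLEC1 at -0.82, with the E2 enzyme UBE2J1 at -0.40 and AUP1 at -0.39. TGFβ1 raised 7 of the 30 folding factors and 3 of the 22 degradation genes in wt-GR cells, and 5 and 4 in S134A-GR cells, near the shares of abundant genes given above (19.0% and 17.8%).

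The other one-carbon and amino acid enzymes showed no common direction, with 10 of 27 higher and 10 lower under vehicle and a median of 0.0107. ASS1, which makes argininosuccinate on the way to arginine, read 997, 1148 and 1076 in wt-GR and 122, 145 and 108 in the mutant under vehicle (log2 fold change -3.10, adjusted p = 2.1e-10). AMT, of the glycine cleavage system, was higher (1.27), and ALDH1L1, the cytosolic relative of ALDH1L2, lower (-2.64) at counts of 27.5 to 43.2 against 1.78 to 7.10. Of 23 other stress transcription and secreted factors, 11 were lower and 4 higher. BEX2 read 58.1 to 70.5 in wt-GR and 0 to 3.56 in S134A-GR vehicle libraries, and CREB3L3 80.3 to 101 against 32.0 to 53.5. GDF15, a secreted target of ATF4 and CHOP, was lower under vehicle (-1.08, adjusted p = 0.000374) and not under TGFβ1 (0.00, adjusted p = 0.995). TGFβ1 lowered it in wt-GR cells (-0.78, adjusted p = 0.0122) and gave 0.30 in S134A-GR cells, and this difference in response was not called (1.08, adjusted p = 0.18).

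**Figure D4:**
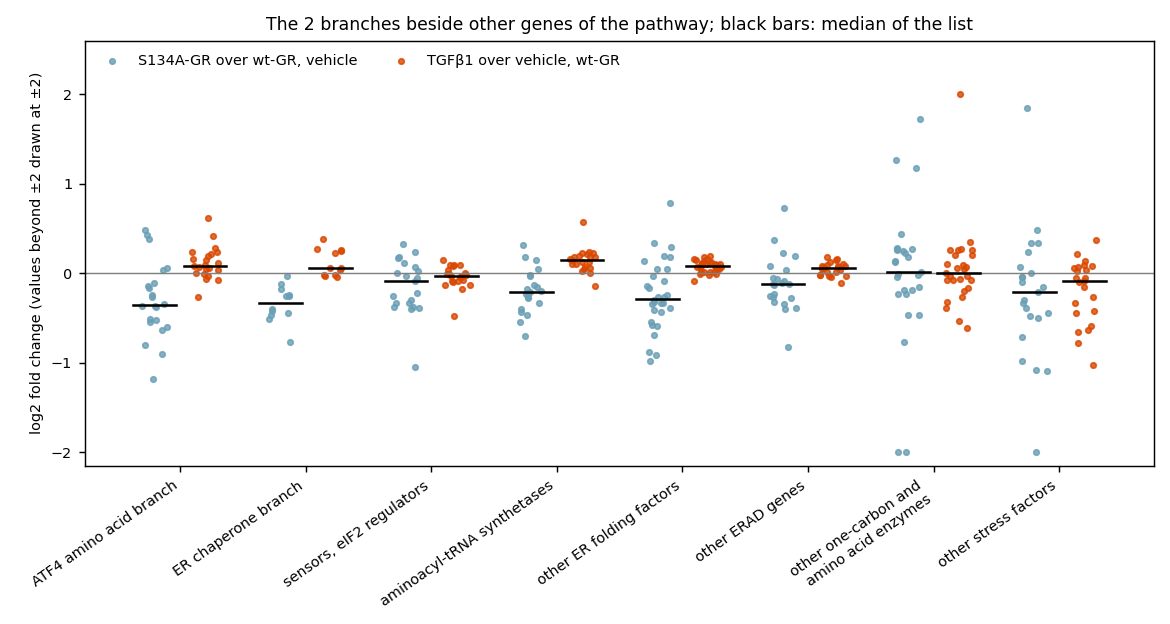
Log2 fold change (y axis) of each gene of the 2 branches and of 6 other lists, for S134A-GR over wt-GR under vehicle (blue) and TGFβ1 over vehicle in wt-GR cells (orange), with black bars at the list medians. Values larger than 2 in size are drawn at that limit. The line medians of both branches lie near -0.35 and -0.33, that of the one-carbon and amino acid enzymes at 0.01, and the treatment median is highest, at 0.15, for the synthetases.

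Cell clones can differ in whole stretches of a chromosome, so each member was set beside the 20 tested genes nearest to it, 10 on each side where the chromosome allowed. In the amino acid branch the neighbours' medians under vehicle ran from -0.345 to 0.203 with a median of 0.0121, and 18 of 22 members were below their neighbours' median. In the ER branch they ran from -0.513 to 0.305 with a median of 0.0609, and 11 of 12 members were below. ASNS on chromosome 7 (-1.18) stood beside a neighbours' median of -0.08, DDIT4 on chromosome 10 (-0.80) beside 0.20, and XBP1 on chromosome 22 (-0.77) beside -0.11. Of the called members, 5 lay between the quartiles of their neighbours, CREB3L1, VLDLR, PSPH, PHGDH and CEBPG. The neighbours of CREB3L1 on chromosome 11 and VLDLR on chromosome 9 had medians of -0.51 and -0.35, below the -0.42 and -0.14 of the members themselves. Those of PSPH, PHGDH and CEBPG had medians of -0.16, -0.21 and -0.06, above the -0.26, -0.37 and -0.24 of the members. ATF4, DNAJB9 and HSP90B1 lay just below the lower quartile, each with 5 of 20 neighbours lower than itself. Lying outside the quartiles does not separate gene from region. For no member can a difference of the region be told apart from one of the gene. MTHFD2 on chromosome 2 also lay among lower neighbours (-0.28, beside its own -0.63). Genes of the other lists, DNAJC3, HYOU1 and SPCS2 among them, were not set beside their neighbours. Copy number was not measured, and its part in these differences was not tested.

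**Figure D5:**
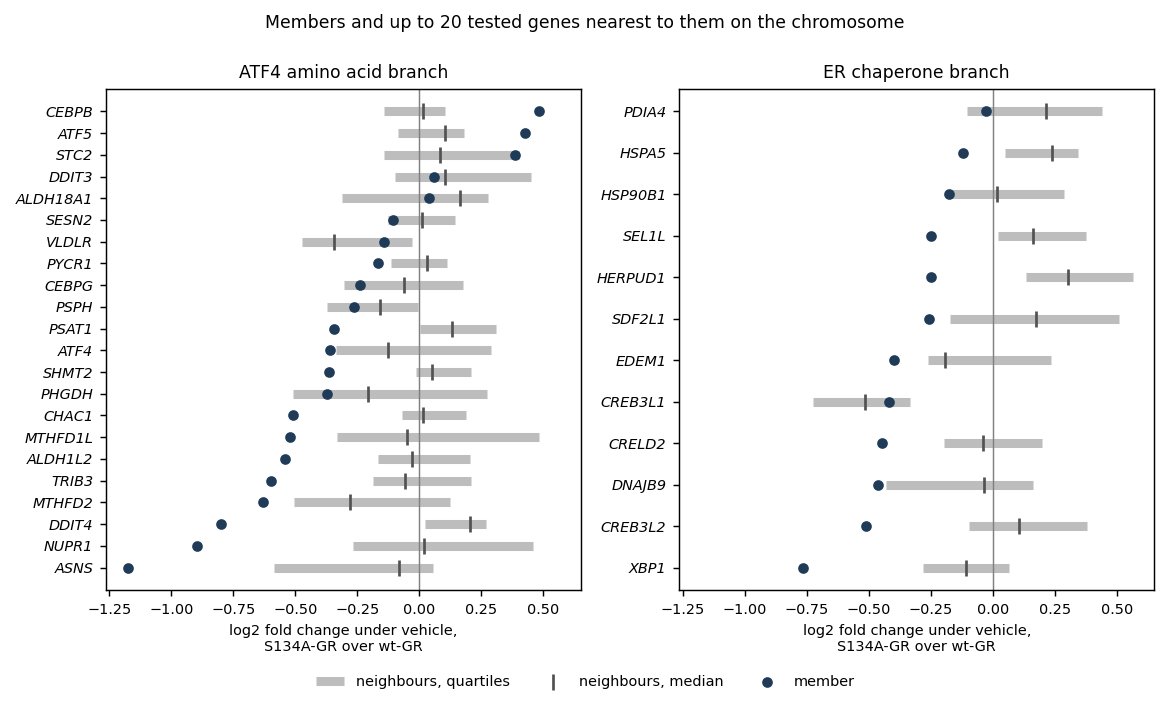
Log2 fold change of S134A-GR over wt-GR under vehicle (x axis) for each member (dots) beside the median (ticks) and the quartiles (grey bars) of up to 20 nearest tested genes. Of the 34 dots, 22 lie left of the grey bar of their own neighbourhood, 10 inside it (CREB3L1, VLDLR, PSPH, PHGDH and CEBPG among them) and 2 to its right.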

How the data were processed

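RNA of 12 libraries (4 groups, 3 libraries each, grouped by the labels) was sequenced as 75-base read pairs from TruSeq libraries. The authors removed adapters and weak bases with Trimmomatic, used HISAT2 with the hg38 genome, took counts per gene from featureCounts (Subread) and divided them by DESeq2 (1.22.2) size factors. The deposited values are this signal, normalized counts per gene symbol. The annotation, the strand setting, how the mates of a pair were counted, and the versions of the other tools are not given in the sources used here. Dividing each library by its smallest step gave whole reads for 100% of values (within 0.01 read). The recovered totals exceed the average depth that the methods state, for a reason not given there. On these reads edgeR and DESeq2 called 9452 and 9406 genes between the lines under vehicle, beside 9569 by limma.

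Genes with at least 10 recovered reads over the 12 libraries (18579) were fitted with limma 3.58.1 in R 4.3.3 on log2(normalized count + 1), with 4 group means, trended empirical Bayes moderation and Benjamini-Hochberg adjustment over all of them. A call is an adjusted p under 0.05 at any fold change. The script was tested on simulated data. Alternatives were TMM factors, edgeR 4.0.16, DESeq2 1.42.0, 2 other filters, pseudocounts of 0.5 and 16, a replicate block, fits of the compared groups only, and leaving out each library.

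The members, the other gene lists and the motifs were chosen with earlier results of these data known. All 34 members may be named. Every library is given for ATF4, DDIT3, XBP1 and HSPA5, for the 6 called members of each branch that differed most between the lines under vehicle, and for the 3 called members of each branch with the largest response to TGFβ1 in each line. Of each other list, the 3 called genes that differed most under vehicle are named, and the further ones named (EIF2AK1, EIF2AK3, EIF2AK4, PPP1R15A and PPP1R15B) were chosen after their values were seen. The level of 1000 normalized counts for abundant genes was set after seeing the data. Gene models come from the GENCODE annotation of hg38 and promoter letters from RefSeq (GRCh38.p14).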

Additional observations from a re-analysis of the deposited data

How the results depend on the processing

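No called value changed sign under any alternative. Of 170 values of members, 34 changed sign in at least 1 alternative, none of them called there or as reported (adjusted p of at least 0.513). The branch counts stayed within 1.5 times of those reported, except when single libraries were left out. The amino acid branch genes that rose with TGFβ1 in wt-GR cells then numbered from 5 (without wt-GR vehicle replicate 2 or TGFβ1 replicate 1) to 8, and the ER branch genes called in S134A-GR cells from 1 to 2 (without wt-GR vehicle replicate 1 or S134A-GR TGFβ1 replicate 3). By direction, the 3 members higher in S134A-GR cells under TGFβ1 became 1 without wt-GR TGFβ1 replicate 2 (CEBPB and STC2 lost), and the 2 that fell with TGFβ1 in S134A-GR cells became 1 (PHGDH lost) without any S134A-GR library but TGFβ1 replicate 2. Leaving out a library of another group changes the pooled spread. TMM factors, edgeR, both other filters and both pseudocounts changed none of these counts. DESeq2 added PYCR1 in S134A-GR cells (adjusted p = 0.0326), and called 211 genes for the difference between responses, where limma called 77 and edgeR 78, none of them members. Fits of the compared groups only lost PDIA4 under TGFβ1 and TRIB3 and SDF2L1 in wt-GR cells.

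The replicate numbers did not pair the libraries. Deviations from the group means correlated at -0.00324 on average for libraries with the same number (-0.138 to 0.162 over 18 pairs) and at 0.00173 for the others, across 12506 genes, which are not independent replicates, and 5 of 12 libraries correlated best with their own number. With a replicate block the ER branch count under TGFβ1 was 11 in place of 12 (PDIA4, adjusted p = 0.0621), and no other call of a member changed.

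Low values limit ALDH1L2, STC2 and NUPR1 most. With a pseudocount of 16 their line differences under vehicle were -0.41, 0.33 and -0.81 on the log2 scale, beside -0.54, 0.38 and -0.90. The genes of the other lists were not run under the alternatives.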
